A study of Mus musculus with 8 samples.

Results

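Dppa2, Dppa3, Dppa4 and Dppa5a were first grouped by name, as developmental pluripotency associated genes, because mouse pluripotent cells express them, and their proteins fall into 3 unrelated kinds. Members were taken as every array probe whose annotated gene symbol, current or older, was 1 of these 4. The rule found 4 probes of 23473, 1 for each gene, and all 4 had a value on each of the 8 arrays. The Dppa5a probe carries the older symbol Dppa5 in the platform annotation.

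Gene expression was measured in mouse cells with a Nanog-GFP reporter, whose fluorescence marks cells that use the Nanog gene, on 1-colour TORAY oligonucleotide arrays of Cy5-labelled amplified RNA. The groups are primordial germ cells taken at stage E11.5 (E11.5 PGC), cells cultured for 3 days (Day3), cells cultured for 6 days (Day6) and embryonic germ cells (EG), a pluripotent cell type derived from germ cells, with 2 arrays each. The series describes the conversion of germ cells into pluripotent cells, with candidate cells purified by flow sorting during culture. All groups carry the reporter. The sample names of Day3, Day6 and EG add "2i+A83", for PD325901 at 1 µM (a MEK inhibitor), CHIR99021 at 3 µM (a GSK3 inhibitor) and A83-01 at 250 nM (which blocks Activin and Nodal receptors). The labels repeat these agents, and a medium with 15% serum replacement, LIF and bFGF, for the E11.5 PGC samples too, so they do not say which cells had met them at harvest. They do not say whether the 2 arrays of a group are separate animals, cultures or EG lines, so the p-values measure only the spread between these arrays, which may be technical.

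Primordial germ cells are the embryonic founders of eggs and sperm, and in culture with the right signals they can turn into self-renewing pluripotent EG cells. Dppa2 and Dppa4 are small chromatin proteins with a SAP domain, a DNA-binding fold. They pair with each other and lie side by side in the genome, and in mouse embryonic stem cells they act upstream of the cleavage-stage genes Dux and Zscan4. Dppa3, also called Stella or PGC7, marks germ cells from their first appearance. In the fertilized egg it shields maternal DNA from oxidation by Tet3. It also binds Uhrf1, the protein that brings the maintenance methyltransferase Dnmt1 to replicated DNA. Dppa5a, also called Esg1, is an RNA-binding protein with a KH domain.

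The values are linear intensities that the authors scaled so that the median probe of an array lay near 20, with array medians between 19.99 and 20.01 and 21126 to 22404 probes measured per array. The arrays carry names of 2 series. Series A holds both EG arrays and the first replicate of Day6, Day3 and E11.5 PGC, and series B holds the second replicate of Day6, Day3 and E11.5 PGC. Changes are log2 differences of group means with their standard error, from limma fitted over all probes and arrays, and a call is an adjusted p (Benjamini-Hochberg over all probes tested) under 0.05. Each is given without a term for the array series and, where a call of a member or a count over a gene list differs, with the series as a block. EG has no series B array, so its blocked values assume that the 2 series would differ by as much in EG as elsewhere. Of 11 gonadal somatic markers, the summed intensity was 66.1 and 84.9 in E11.5 PGC cells, 62.6 and 63.2 by Day3, 84.7 and 85.5 by Day6, and 188 and 203 in EG cells, of which Amhr2 made up 136 and 143. In E11.5 PGC the summed intensity was 6490 and 4872 over 9 early germ cell markers and 6480 and 6835 over 9 later ones. Single markers ranged widely there, with Dazl, an RNA-binding protein of germ cells, at 2024 and 1867 and Prdm1 at 19.7 and 44.3.

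The 4 genes took 4 different courses. Dppa3 fell in Day6 and EG, Dppa4 was lowest at Day6 and higher again in EG, Dppa2 was higher in all 3 later groups than in E11.5 PGC, and Dppa5a was highest in EG. Without the array series, only the Dppa3 changes of Day6 and EG against E11.5 PGC were called, in comparisons where 8.61% (Day6) and 11.2% (EG) of all probes were.

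**Figure D1:**
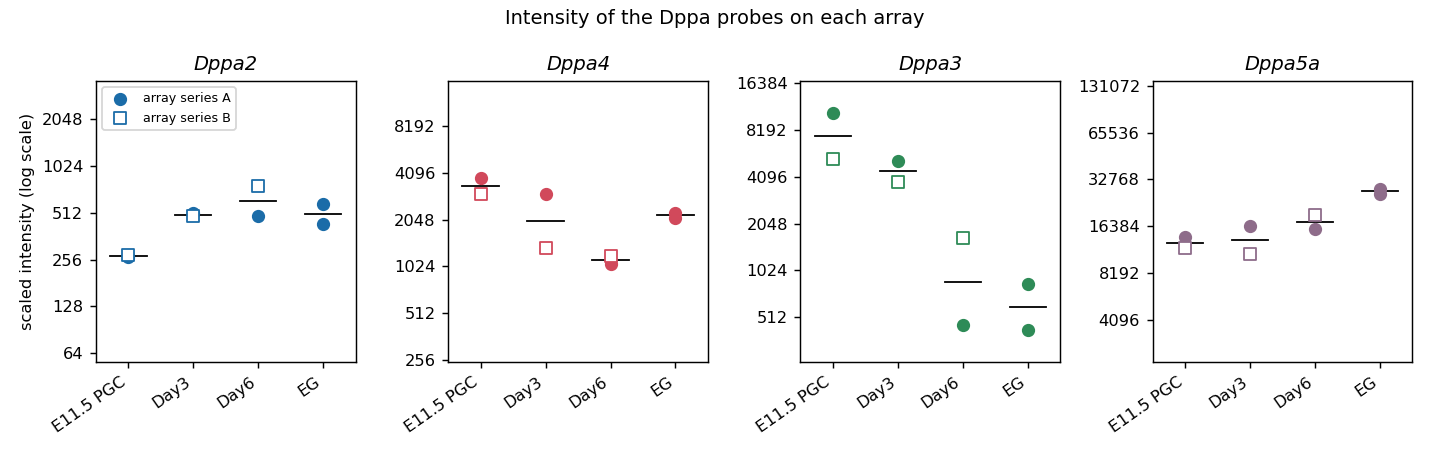
Scaled intensity of each Dppa probe (vertical axis, log scale, 1 panel per gene, each panel spanning the same fold range around its own values) on the 8 arrays by stage. Filled circles are arrays of series A, open squares arrays of series B, and bars geometric means of 2 arrays. Dppa3 is at 1648 or lower on every Day6 and EG array, against 3798 or higher on every Day3 and E11.5 PGC array.

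Dppa2 had an intensity of 267.7 and 273.8 in E11.5 PGC cells, 507.5 and 485.1 by Day3, 487.6 and 758.8 by Day6, and 432.3 and 581.5 in EG cells. Both E11.5 PGC arrays lay below all 6 later arrays, and the Day3, Day6 and EG arrays overlapped one another. Against E11.5 PGC, the log2 change was 0.87 ± 0.31 at Day3 (limma adjusted p = 0.258), 1.17 ± 0.31 at Day6 (limma adjusted p = 0.0672) and 0.89 ± 0.31 in EG (limma adjusted p = 0.121). None of these was a call in the model without the array series. With the series as a block, Dppa2 passed the threshold at Day6 (change 1.17, limma adjusted p = 0.0234) and in EG (change 0.99, limma adjusted p = 0.0497). Without Day6 replicate 2 the blocked Day6 change was 0.84 (limma adjusted p = 0.108). That call was also lost without either E11.5 PGC array, and the blocked EG call was lost without each of the 8 arrays in turn. Within series A the gene was higher by 0.92 at Day3, 0.86 at Day6 and 0.91 in EG than in E11.5 PGC, and within series B by 0.83 at Day3 and 1.47 at Day6. The 3 later groups were not told apart: the change of EG against Day3 was 0.02, with a 95% interval of -0.73 to 0.76, and that of Day6 against Day3 was 0.29, with an interval of -0.45 to 1.03.

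Dppa4, the partner of Dppa2 and its direct neighbour in the genome, did not follow it. Its probe read 3765 and 2992 in E11.5 PGC cells, 3006 and 1344 by Day3, 1055 and 1202 by Day6, and 2263 and 2108 in EG cells. The Day6 arrays were the lowest 2 of the 8, and no Day6 array overlapped another group, whereas the Day3 arrays differed from each other by 2.24-fold and spanned both EG arrays. At Day6 the log2 change from E11.5 PGC was -1.58 ± 0.40 (2.98-fold lower, limma adjusted p = 0.0574), which missed the threshold. With the array series as a block it passed (limma adjusted p = 0.0174), and within series A and B the change was -1.84 and -1.32. Without Day6 replicate 1 the blocked change was -1.11 (limma adjusted p = 0.109), and the blocked call was lost without either E11.5 PGC array as well. EG was higher than Day6 by 0.96 ± 0.40 (limma adjusted p = 0.381), and 1.05 within series A, a change that passed in neither model. EG against E11.5 PGC gave -0.62, with a 95% interval of -1.57 to 0.33.

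The 2 probes can be set against each other as changes on the same array, from each probe's own E11.5 PGC mean. On that scale the Dppa4 change minus the Dppa2 change was 0.18 and -0.18 on the E11.5 PGC arrays themselves, -1.07 and -2.16 by Day3, -2.52 and -2.97 by Day6, and -1.24 and -1.77 in EG cells. All 6 later arrays were thus below both E11.5 PGC arrays, and the Day6 arrays were below all others. The difference averaged -1.61 ± 0.78 at Day3, -2.74 ± 0.32 at Day6 and -1.51 ± 0.37 in EG (SD, n = 2 arrays each). Over the 8 arrays, which share stages, the Pearson correlation of the log2 levels of Dppa2 and Dppa4 was -0.694, a description of these arrays.

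**Figure D2:**
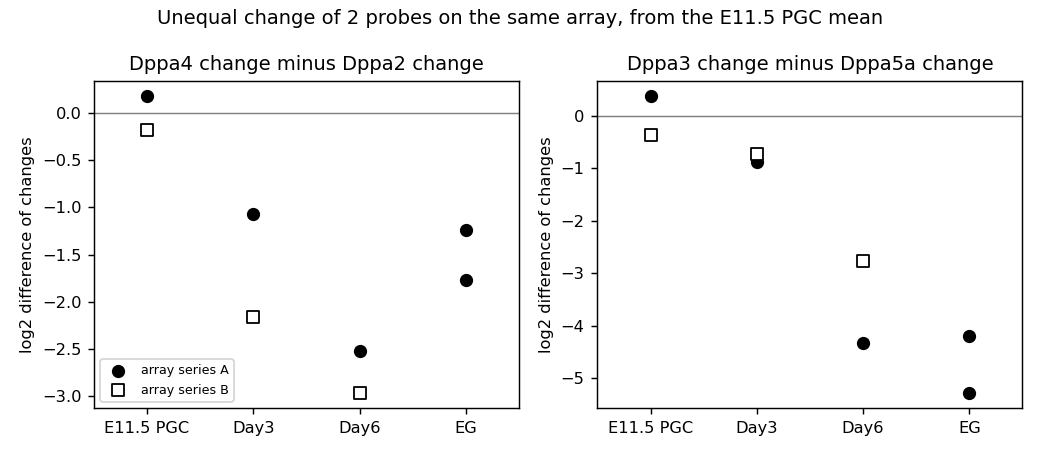
Difference between the log2 changes of 2 probes on the same array (vertical axis), each change taken from its probe's E11.5 PGC mean, by stage. Left, Dppa4 minus Dppa2, and right, Dppa3 minus Dppa5a, with filled circles for series A and open squares for series B. Both differences are below 0 on all 6 arrays after E11.5 PGC, and lowest at Day6 on the left and on an EG array on the right.

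Dppa3 showed the largest changes of the 4. Its probe read 10543 and 5303 in E11.5 PGC cells, 5176 and 3798 by Day3, 456 and 1648 by Day6, and 843 and 424 in EG cells. The 2 arrays of a group were far apart, by 3.62-fold at Day6 and 1.99-fold in E11.5 PGC, yet every Day6 and EG array lay below every Day3 and E11.5 PGC array. In bulk RNA such as this, fewer cells with the transcript and less of it per cell cannot be told apart.

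Against E11.5 PGC, Dppa3 fell by 3.11 ± 0.67 on the log2 scale at Day6 (8.63-fold lower, limma adjusted p = 0.0338) and fell by 3.64 ± 0.67 in EG (12.5-fold lower, limma adjusted p = 0.0182). It was the 1 member of 4 called in each of these comparisons. Both calls stood with the array series as a block (limma adjusted p = 0.0209 at Day6 and 0.0177 in EG), though the blocked Day6 call was lost without E11.5 PGC replicate 1 or Day6 replicate 1 and the blocked EG call without E11.5 PGC replicate 1 or EG replicate 2. The size at Day6 differed between the series, at -4.53 within series A and -1.69 within series B. Replicate 1 of Day6, the lower of the Day6 arrays for Dppa3, also had the highest summed intensity of 12 fibroblast and mesenchyme markers. The sum was 4317 on it and 833 on replicate 2 of Day6, against 476 and 595 in E11.5 PGC. Vim, S100a4, Thy1, Acta2, Col1a1, Col1a2 and Lum were highest on that array, and Col3a1, Dcn, Pdgfra, Pdgfrb and Twist1 on others. The sum was above E11.5 PGC in the other groups too, with 1218 and 754 at Day3 and 1808 and 888 in EG. Of these markers, Vim had 671 and 447 in EG, against 282 and 344 in E11.5 PGC. Col3a1 was lower in EG, at 13.5 and 10.4, against 18.7 and 41.1 in E11.5 PGC. Without a block 0 of the 12 markers were called in EG against E11.5 PGC (median change 0.46). Thy1, a surface protein of fibroblasts, was at 747 on replicate 1 and 10.7 on replicate 2 of Day6 and at 96.6 and 71.0 in EG, against 4.64 and 1.99 in E11.5 PGC. S100a4, a calcium-binding protein of fibroblasts, was at 1335 and 13.2 at Day6 and 808 and 190 in EG, against 4.04 and 1.48 in E11.5 PGC. The part of these transcripts in the Dppa3 results at Day6 and in EG was not tested. Without Day6 replicate 1 the Day6 change of Dppa3 was -2.18 (limma adjusted p = 0.101). The Day6 call was also lost without either E11.5 PGC array, either Day3 array or either EG array (limma adjusted p from 0.0501 to 0.178). The EG call was lost without either E11.5 PGC array or either EG array (limma adjusted p from 0.0722 to 0.143). Without the block, the fits that left out 1 array gave Dppa3 changes of -4.04 to -2.18 at Day6 and -4.14 to -3.15 in EG.

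The largest step between successive stages in Dppa3 was that of Day6 against Day3, at -3.51 within series A and -1.20 within series B, and it was not called (limma adjusted p = 0.284). EG was lower than Day3 by a log2 change of -2.89 ± 0.67 (limma adjusted p = 0.0918), with -3.11 within series A, and this missed the threshold in both models. EG and Day6 overlapped, and the difference of -0.53 had a 95% interval of -2.11 to 1.04. The interval of the Day3 change from E11.5 PGC was -2.33 to 0.82, which holds both lower and higher levels.

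Dppa5a had an intensity of 13998 and 11815 in E11.5 PGC cells, 16484 and 10897 by Day3, 15762 and 19348 by Day6, and 26506 and 28405 in EG cells. Both EG arrays lay above the other 6, whereas Day3 overlapped both E11.5 PGC and Day6. In EG the log2 change from E11.5 PGC was 1.09 ± 0.31 (2.13-fold higher, limma adjusted p = 0.0638), just outside the threshold. With the array series as a block it was 1.00 (limma adjusted p = 0.0433), a call that was lost when either E11.5 PGC array or either EG array was left out. Within series A, EG was higher than E11.5 PGC by 0.97, than Day3 by 0.74 and than Day6 by 0.80. For Day3 against E11.5 PGC the change was 0.06, with a 95% interval of -0.66 to 0.78. RefSeq's mouse gene table (GRCm38.p6) also lists the near copies Dppa5b and Dppa5c, and Dppa3-ps for Dppa3, and the share of any signal from such copies is not known for these probes.

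**Figure D3:**
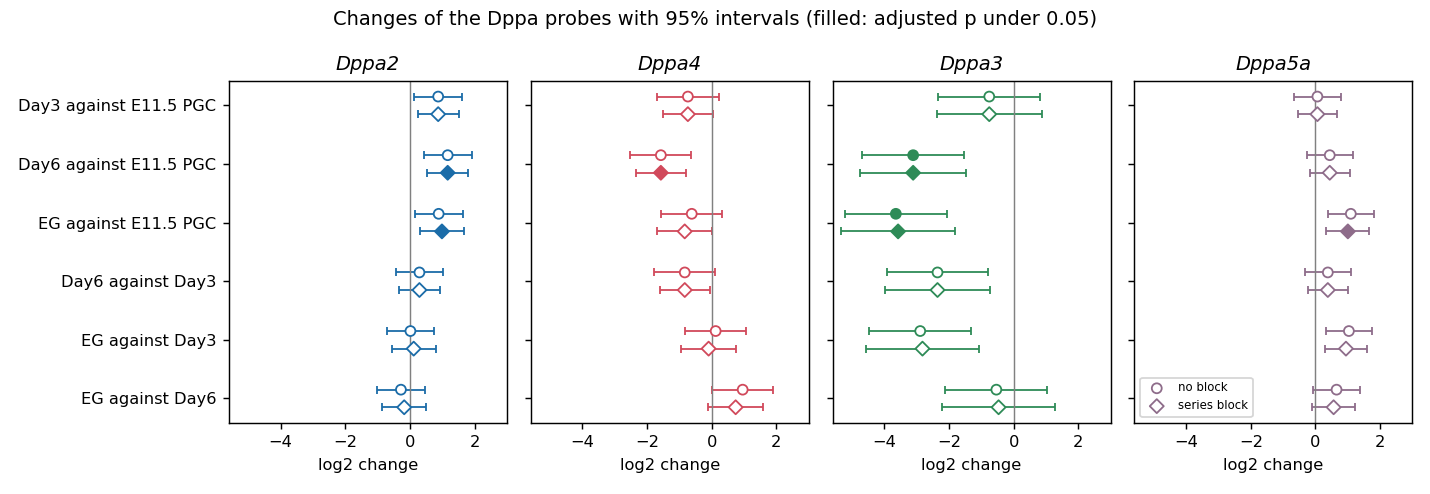
Log2 change of each Dppa probe (horizontal axis, 1 panel per gene) with its 95% interval in the 6 comparisons, without a term for the array series (circles) and with it as a block (diamonds). Filled symbols have an adjusted p under 0.05: Dppa3 in 2 comparisons in both models, and Dppa2 in 2 comparisons, Dppa4 in 1 and Dppa5a in 1 with the block.

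Counted by comparison, none of the 4 members was called at Day3 against E11.5 PGC, where 2.08% of all probes were called (8.34% with the series as a block). None was called for Day6 against Day3, where limma called 0% of probes without the block (0 of 20015, with 1783 at an unadjusted p under 0.05) and 1.8% with it. None was called for EG against Day6 (0.169% of probes, and 1.96% with the block) or for EG against Day3 (1.42%, and 5.68% with the block). With the block, 3 of the 4 were called at Day6 against E11.5 PGC, Dppa2 up and Dppa3 and Dppa4 down, where 23.8% of all probes were called. Likewise 3 of the 4 were called in EG against E11.5 PGC, Dppa2 and Dppa5a up and Dppa3 down, beside 23.6% of all probes. These comparisons share the E11.5 PGC arrays. The median log2 change over all probes was -0.16 in both without the block. With the block it was -0.16 at Day6 and -0.18 in EG.

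Each gene was then set against its nearest named genes with a probe. Around Dppa4 and Dppa2, the nearest named genes with a probe are Nectin3 on the Dppa4 side and Morc1 on the Dppa2 side. Nectin3 is a cell adhesion protein, and 11 annotated genes without a probe lie between it and Dppa4. Morc1 silences transposons in the male germ line of mice, with 1 such gene between it and Dppa2. Nectin3 had 482 and 437 in E11.5 PGC cells, 315 and 295 by Day3, 170 and 126 by Day6, and 211 and 193 in EG cells, with no overlap between groups. It fell by 1.65 ± 0.27 at Day6 (limma adjusted p = 0.0135) and fell by 1.19 ± 0.27 in EG (limma adjusted p = 0.0356) on the log2 scale against E11.5 PGC, and like Dppa4 it was lowest at Day6. Morc1 had 184 and 276 in E11.5 PGC cells, 346 and 301 by Day3, 465 and 752 by Day6, and 611 and 350 in EG cells. Its Day6 change of 1.40 ± 0.40 missed the threshold (limma adjusted p = 0.0825) and passed with the block (limma adjusted p = 0.0315). The next named gene with a probe beyond Nectin3, Cd96, was near 42 to 75 on all arrays and was not called. Trat1, beyond Morc1, had a value on 2 arrays only.

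Dppa3 lies in a group of genes with Gdf3, Nanog and Slc2a3, several of which pluripotent cells share. None of the 6 other genes of this group with a probe was called lower in any comparison, in either model. Slc2a3, the glucose transporter GLUT3, rose against E11.5 PGC by 2.02 ± 0.32 at Day3, 2.04 ± 0.32 at Day6 and 2.96 ± 0.32 in EG (limma adjusted p from 0.00361 to 0.0287). Apobec1, an RNA-editing cytidine deaminase, rose by 1.61 ± 0.37 at Day6 and 2.25 ± 0.37 in EG (limma adjusted p = 0.0408 and 0.0130). Nanog rose by 1.95 ± 0.46 at Day6 (limma adjusted p = 0.0464). Gdf3, a TGF-beta family ligand and the closest gene with a probe on one side of Dppa3, had 276 and 240 in E11.5 PGC cells, 496 and 424 by Day3, 434 and 504 by Day6, and 349 and 304 in EG cells, and was called only with the block, at Day6 (limma adjusted p = 0.0316). So 3 of 6 genes rose and 0 fell at Day6 against E11.5 PGC, with a median change of 1.24, and without Day6 replicate 1 only Nanog of the 6 was called. In EG 2 of 6 rose, and with the block 4 rose at Day6 and 3 in EG. Of all probes, 8.61% were called at Day6 and 11.2% in EG, and with the block 23.8% and 23.6%.

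Beside Dppa5a stands Ooep, which has a KH domain too and belongs to the subcortical maternal complex, a protein assembly of the egg. Ooep had 281 and 269 in E11.5 PGC cells, 929 and 821 by Day3, 1926 and 2348 by Day6, and 3344 and 3290 in EG cells, so that the 4 groups did not overlap. It rose against E11.5 PGC by 1.67 ± 0.26 at Day3, 2.95 ± 0.26 at Day6 and 3.59 ± 0.26 in EG (limma adjusted p = 0.0272, 0.00207 and 0.00130). Both Ooep and Dppa5a were highest in EG. On the other side, Gsta4, a glutathione transferase, was highest at Day6, with 607 and 566 in E11.5 PGC cells, 2480 and 2807 by Day3, 6103 and 6394 by Day6, and 4332 and 4608 in EG cells. Gsta2, between Gsta4 and Dppa5a, did not exceed 19.7 on any array, and its low values in E11.5 PGC (1.20 and 1.29) make its change at Day6 (3.25 ± 0.56, limma adjusted p = 0.0151) a change near the dimmest probes.

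**Figure D4:**
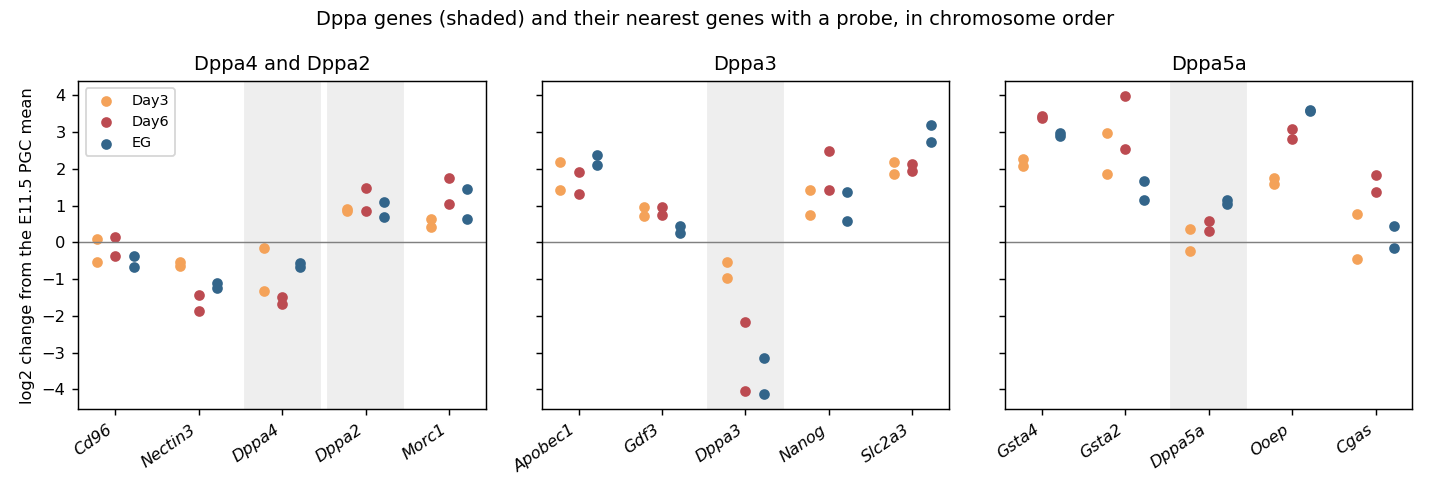
Log2 change from the E11.5 PGC mean (vertical axis) of the Dppa genes (shaded) and their nearest named genes with a probe, in chromosome order, with 2 arrays each of Day3, Day6 and EG. Dppa4 lies below 0 and its neighbour Dppa2 above 0 on all 6 arrays, and Dppa3 is the lowest gene of its panel on every Day6 and EG array.

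Further gene groups are linked to the Dppa genes by known function. Their counts stand beside a share of all probes called against E11.5 PGC of 2.08% at Day3, 8.61% at Day6 and 11.2% in EG. With the block this share was 8.34%, 23.8% and 23.6%. Of 13 genes for DNA methylation and its control, among them the Dppa3 partner Uhrf1, 12 were tested against E11.5 PGC, since Zfp57, which protects imprints, had no value there. Uhrf1 had 166 and 81.3 in E11.5 PGC cells, 741 and 355 by Day3, 2365 and 1567 by Day6, and 1656 and 1434 in EG cells. It rose by 4.05 ± 0.49 at Day6 and 3.73 ± 0.49 in EG (limma adjusted p = 0.00510 and 0.00661). Dppa3 was lowest in these groups. With the block Uhrf1 was called higher at Day3 as well, where Dppa3 was at 5176 and 3798. Dnmt1, the maintenance methyltransferase, had 471 and 471 in EG, against 756 and 579 in E11.5 PGC, and was not called. Dnmt3b, a de novo methyltransferase, rose by 3.11 ± 0.41 at Day3, 4.02 ± 0.41 at Day6 and 3.60 ± 0.41 in EG (limma adjusted p from 0.00301 to 0.0161). Its cofactor Dnmt3l had 717 and 122 at Day6 and 902 and 738 in EG, against 4.20 and 3.38 in E11.5 PGC, and rose in both (limma adjusted p = 0.00880 and 0.00468). The E11.5 PGC values lie near the dimmest probes, which limits the precision of the fitted log2 changes of 6.29 and 7.76. Tet3, the oxidase that Dppa3 opposes in the fertilized egg, was dim. It had 2.95 and 2.26 in EG against 6.09 and 7.49 in E11.5 PGC (change -1.39 ± 0.32, limma adjusted p = 0.0358). In all, 3 of 12 rose and 0 fell at Day6, with or without Day6 replicate 1, and 3 rose and 1 fell in EG. With the block 4 rose and 1 fell at Day6 and 6 rose and 1 fell in EG. At Day3, 1 of 12 rose and 0 fell, and with the block 4 rose and 1 fell. The median change was 0.07 at Day6 (0.73 without Day6 replicate 1) and 0.40 in EG.

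The cleavage-stage genes that Dppa2 and Dppa4 act upstream of in mouse stem cells had 6 probes for 19 genes, none of them for Dux. Zscan4c, a zinc finger gene of the cleavage embryo, had 2.79 and 1.71 in E11.5 PGC cells, 1.44 and 16.1 by Day3, 45.6 and 100.2 by Day6, and 1368 and 4256 in EG cells. Both EG arrays were far above the other 6, and EG was higher than E11.5 PGC by a log2 change of 10.1 ± 1.10 (limma adjusted p = 0.00375) and higher than Day3 by 8.97 ± 1.10 (limma adjusted p = 0.0192). For EG against Day6, Zscan4c was called in neither model. The E11.5 PGC values of Zscan4c lie near the dimmest probes, and the Zscan4 genes are near-identical copies that a probe may not separate. Tdpoz3 rose in EG as well (3.75 ± 0.55, limma adjusted p = 0.00921), with 16.9 and 43.6 in EG against 1.30 and 3.13 in E11.5 PGC. The other 4 probes, for Tdpoz4, Usp17la, Usp17lc and Syce1, were not called without the block, and Usp17lc was called lower at Day6 with it. The count was 2 of 6 up in EG (median 0.55) and 1 of 6, Zscan4c, at Day6, where it was lost without Day6 replicate 1 (limma adjusted p = 0.0823). In EG against E11.5 PGC the log2 change was 0.89 for Dppa2 and -0.62 for Dppa4, neither of them called without the block.

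Among KH-domain relatives of Dppa5a and members of the subcortical maternal complex, 5 of 8 genes had a probe. Khdc3, which has an atypical KH domain, had 47.4 and 25.7 in E11.5 PGC cells, 374 and 280 by Day3, 90.4 and 135 by Day6, and 163 and 175 in EG cells. It was highest at Day3, where it rose by 3.21 ± 0.38 (limma adjusted p = 0.0136), and in EG it rose by 2.27 ± 0.38 (limma adjusted p = 0.0143). Padi6, an arginine deiminase relative of the egg, had 61.1 and 64.1 in EG and between 9.59 and 18.4 on the other 6 arrays, and rose in EG against E11.5 PGC by 2.66 ± 0.30 (limma adjusted p = 0.00425). Nlrp5 and Tle6, core members of the complex, were not called in any comparison. Hence 3 of 5 rose in EG (median 2.27), 2 of 5 at Day6 and 2 of 5 at Day3, and without Day6 replicate 1 the Day6 count was 1, Ooep.

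The earlier search for mouse genes expressed like Oct4 that named the Dppa genes also gave Dppa1, Pramel4 to Pramel7 and Calcoco2, and 4 of these 6 genes had a probe. Calcoco2, whose human counterpart is an autophagy receptor, had 118 and 195 in E11.5 PGC cells, 1452 and 2689 by Day3, 1607 and 5420 by Day6, and 211 and 363 in EG cells. The Day3 and Day6 arrays were all above the E11.5 PGC and EG arrays, and it rose by 3.70 ± 0.64 at Day3 and 4.28 ± 0.64 at Day6 (limma adjusted p = 0.0387 and 0.00970). Pramel7, which promotes the ground state of mouse stem cells, had 4.99 and 8.23 in E11.5 PGC cells, 45.3 and 55.5 by Day3, 209 and 169 by Day6, and 49.8 and 141 in EG cells. It rose at Day3 (2.97 ± 0.51), Day6 (4.87 ± 0.51) and EG (3.71 ± 0.51, limma adjusted p = 0.00771). Dppa1 was dim, between 2.21 and 21.3, and was not called without the block. Pramel6 rose at Day6 by 5.86 ± 1.08 (limma adjusted p = 0.0200) over low values of 2.79 and 1.09 in E11.5 PGC. The group gave 2 of 4 up at Day3, 3 of 4 at Day6 (all 4 without Day6 replicate 1) and 1 of 4 in EG, with medians of 3.33, 4.58 and 2.29 (the median of all probes at Day3 was -0.13). With the block all 4 rose at Day6 and 3 in EG. None of the 4 Dppa members had this shape, with both Day3 and Day6 above both other groups.

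**Figure D5:**
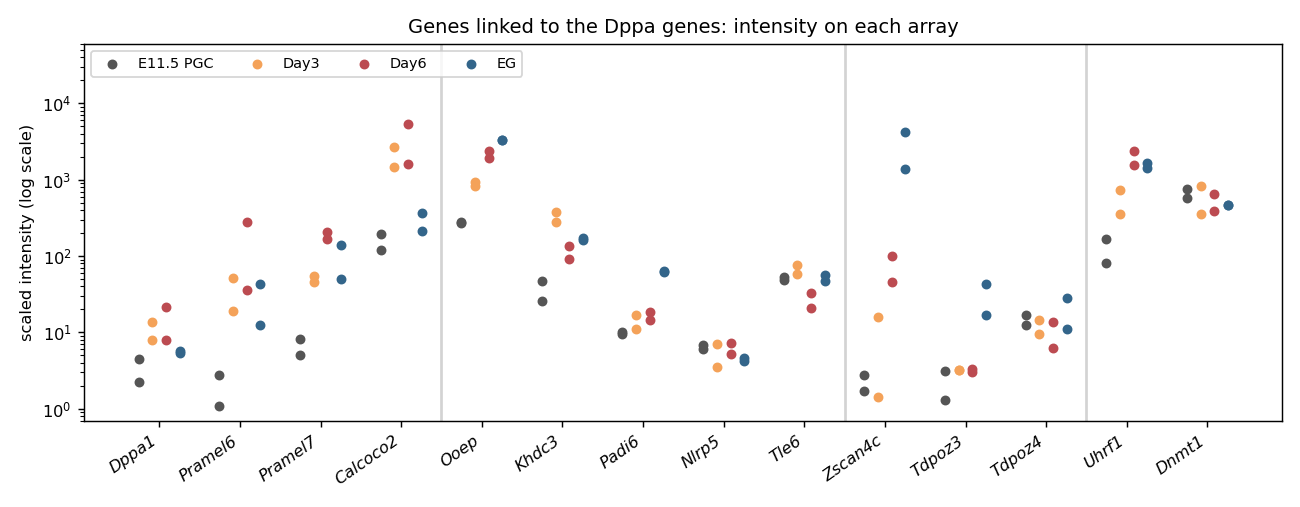
Scaled intensity (vertical axis, log scale) on each of the 8 arrays for genes linked to the Dppa genes, coloured by stage. From left to right the blocks are genes of the Oct4-like search, KH-domain and maternal complex genes, cleavage-stage genes, and the Dppa3 partner Uhrf1 with Dnmt1. Calcoco2 is highest at Day3 and Day6, whereas Ooep, Padi6 and Zscan4c are highest in EG.

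Set beside broader lists, the members split. The shares of all probes called against E11.5 PGC were 8.61% at Day6 and 11.2% in EG, and with the block 23.8% and 23.6%. Of 15 pluripotency genes, 8 rose and 1 fell at Day6 against E11.5 PGC (median 1.83), and 7 rose and 0 fell in EG (median 0.98). The gene that fell at Day6 was Utf1, a chromatin factor of pluripotent cells, with 4192 and 4537 in E11.5 PGC cells, 1673 and 790 by Day3, 642 and 412 by Day6, and 2077 and 1636 in EG cells (change at Day6 -3.08 ± 0.42, limma adjusted p = 0.00722). Its order of stages was that of Dppa4, lowest at Day6 and higher in EG than at Day6. Of 9 early germ cell genes, 0 rose and 3 fell at Day6 and 4 fell in EG, and of 9 later germ cell genes 6 fell at Day6 and 6 in EG. Without Day6 replicate 1, the Day6 counts were 6 pluripotency genes up and 1 down, 3 early and 3 later germ cell genes down. With the block, 9 pluripotency genes rose and 2 fell at Day6 and 9 rose and 1 fell in EG, and 8 later germ cell genes fell at Day6 and 7 in EG. Dnd1, an RNA-binding protein that germ cells need to survive, had 2140 and 1555 in E11.5 PGC cells, 568 and 288 by Day3, 43.0 and 30.7 by Day6, and 89.4 and 104 in EG cells. It had fallen by 2.17 ± 0.40 at Day3 already (limma adjusted p = 0.0453), where Dppa3 was at 5176 and 3798.

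The genes with the profile most like each member were named by Pearson correlation of log2 levels over the 8 arrays, among 5731 named probes measured on all arrays whose group means span at least 1 log2 unit. The arrays share stages and series, so these values describe likeness on these arrays only. Most like Dppa2 were Chmp4c, a subunit of the ESCRT-III membrane-cutting complex (0.980), the dipeptidase Cndp2 (0.973), Zfp386 (0.971), 1700010I14Rik (0.966) and Hes1, a Notch target and repressor (0.966). The intensity of 1700010I14Rik (2.53 to 9.12) lay near that of the dimmest probes. Cndp2 had 102 and 126 in E11.5 PGC cells, 292 and 301 by Day3, 435 and 731 by Day6, and 288 and 400 in EG cells. Like Dppa2, it had its 2 lowest arrays in E11.5 PGC and its highest at Day6 replicate 2. This likeness follows from how it was chosen.

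Most like Dppa3 were Fhit, a dinucleoside polyphosphate hydrolase (0.986), the adhesion protein Icam4 (0.983), Nkiras1, a Ras-like protein that binds NF-kappa-B inhibitors (0.980), Ap3b2, a subunit of a neuronal vesicle adaptor (0.972), and Tango2 (0.971). Ap3b2 had 277 and 359 in E11.5 PGC cells, 117 and 152 by Day3, 5.23 and 34.4 by Day6, and 12.0 and 7.10 in EG cells. All 5 had replicate 1 below replicate 2 at Day6, as Dppa3 did. Their choice by likeness on these same arrays favours this, so it is no separate observation. Most like Dppa4 were 1700028I16Rik (0.971), Wdr31 (0.966), the mRNA export factor Rae1 (0.964), Plvap, an endothelial membrane protein (0.962), and the peroxisome biogenesis factor Pex19 (0.961). Rae1 had 2577 and 1879 in E11.5 PGC cells, 1844 and 1263 by Day3, 1079 and 1053 by Day6, and 1463 and 1546 in EG cells. Most like Dppa5a were Hexim1, an inhibitor of transcription elongation (0.955), the calpain protease Capn3 (0.955), Padi6 (0.952), the synaptic protein Cplx1 (0.952) and BC048507 (0.950). The intensities of Capn3 (1.54 to 9.98) and BC048507 (1.84 to 10.9) lay near those of the dimmest probes. Hexim1 had 38.1 and 42.7 in EG and between 13.5 and 23.3 on the other arrays. Among the members themselves, the correlation was highest for Dppa3 with Dppa4 (0.601) and lowest for Dppa3 with Dppa5a (-0.700).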

How the data were processed

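The authors deposited linear spot intensity per probe, scaled to an array median near 20. How background and missing values were handled is not given in the sources used here. Probes were named from the platform annotation, with older symbols updated through RefSeq's mouse gene table: 16631 of 23473 probes had 1 symbol and 6842 had none. Intensities were converted to log2 with no further normalization, and missing values stayed missing. Comparisons used limma 3.58.1 in R 4.3.3 on all 8 arrays and 4 groups, with two-sided moderated tests. Testing required a value on all 4 arrays of a comparison, and p-values were adjusted by Benjamini-Hochberg over all probes so tested, with a threshold of 0.05. The number of arrays limits the precision, and the fit was tested on simulated data. The 4 genes, the gene lists and the rules for named genes were chosen with earlier results of these data known. Genes named are the 4 members, called list genes, the 5 most alike per member, and the 2 nearest genes with a probe on each side; others, such as Dppa1, Dnmt1, Thy1 and further list genes with no call, were chosen after their values were seen. Alternatives were the replicate number or the array series as a block, quantile normalization, a pseudocount of 5, a trended robust fit, removal of the dimmest 25% of probes, and leaving out each array. Leaving out each array with the series as a block, and list counts without Day6 replicate 1, were added after seeing the data. No replicate pairing was used in the main fits, since the labels do not say what a replicate number marks.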

Additional observations from a re-analysis of the deposited data

How the results depend on the processing

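With 2 arrays a group, 1 array can decide a call. The Dppa3 calls at Day6 and in EG stood under all 6 settings that kept every array (replicate block, array series block, quantile normalization, pseudocount, trended robust fit, the dimmest probes removed), and 128 of 144 values under those settings kept their direction and their side of the threshold. Dppa2 at Day6 against E11.5 PGC passed with the replicate block (1.17, limma adjusted p = 0.0372), the array series block (1.17), the trended robust fit (1.17) and the pseudocount (1.15). Dppa4 in that comparison passed with the replicate block (-1.58, limma adjusted p = 0.0314), the array series block (-1.58), the trended robust fit (-1.58), without the dimmest 25% of probes (-1.58), with quantile normalization (-1.53) and with the pseudocount (-1.57). For EG against E11.5 PGC, Dppa2 passed with the array series block (0.99), and Dppa5a with the replicate block (1.09, limma adjusted p = 0.0453), the array series block (1.00), the pseudocount (1.09) and without the dimmest 25% of probes (1.09). Dppa4 in EG against Day3 changed sign with the array series block (-0.10). The cause of these differences was not tested.

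Counts of probes called over all genes moved more. Day3 against E11.5 PGC gave 804 with the replicate block, 1725 with the array series block and 700 with the pseudocount. Day6 against Day3 gave 78, 361 and 68 under the same settings and 34 with the trended robust fit. EG against Day6 gave 241, 395 and 162, then 98 with the trended robust fit and 89 without the dimmest 25% of probes. Day6 against E11.5 PGC gave 2850 with the replicate block and 4790 with the array series block, and EG against E11.5 PGC 3951 and 4905. EG against Day3 gave 849, 1167 and 566, and 451 with the trended robust fit. Deviations of replicate 1 from its group mean correlated at 0.547 to 0.694 among E11.5 PGC, Day3 and Day6 but at -0.0246 to 0.0611 with EG. Both EG arrays are of series A, so EG could not show a difference between the series, and its values cannot decide on a pairing. In the other groups the replicate number and the series are the same split, and the fits without a block leave this shared deviation in the spread.

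Leaving out each array in turn gave 4 to 555 probes called for Day3 against E11.5 PGC, 0 to 6 for EG against Day6, 430 to 1652 for Day6 against E11.5 PGC, 232 to 2809 for EG against E11.5 PGC and 0 to 422 for EG against Day3. The changes of Dppa2 ran from -0.0253 to 0.61 for Day6 against Day3, -0.60 to 0.0403 for EG against Day6 and -0.20 to 0.23 for EG against Day3. Those of Dppa3 ran from -1.46 to 0.39 for EG against Day6, -4.04 to -2.18 for Day6 against E11.5 PGC, -4.14 to -3.15 for EG against E11.5 PGC and -3.38 to -2.40 for EG against Day3, which was called without either Day6 array (limma adjusted p = 0.0430). Dppa4 ran from -1.74 to -1.41 for Day6 against E11.5 PGC, called without either Day3 array (limma adjusted p = 0.0235), and from -0.46 to 0.70 for EG against Day3. Dppa5a ran from -0.24 to 0.36 for Day3 against E11.5 PGC. With the series block kept, the ranges that crossed 0 were -1.60 to 0.0936 for Dppa3 and -0.25 to 0.37 for Dppa5a at Day3 against E11.5 PGC, -0.0334 to 0.62 for Dppa2 at Day6 against Day3, -0.61 to 0.0403 for Dppa2 and -2.18 to 0.39 for Dppa3 in EG against Day6, and -0.10 to 0.38 for Dppa2 and -0.46 to 0.63 for Dppa4 in EG against Day3.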

Other observations

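Markers of other cell types differed between groups in some transcripts. Amhr2, the receptor for anti-Müllerian hormone, rose against E11.5 PGC by 2.26 ± 0.28 at Day6 and 4.21 ± 0.28 in EG (limma adjusted p = 0.00524 and 0.00128). Without the array series, no other of the 11 gonadal somatic markers was called higher in these comparisons, and with it as a block Cyp11a1, a steroid-synthesis enzyme, was also called higher in EG (1.22, limma adjusted p = 0.0383). Lhx9, a gonadal transcription factor, had 1.68 and 1.74 at Day6, near the dimmest probes, against 10.5 and 8.47 in E11.5 PGC, and was called lower (limma adjusted p = 0.0262; 0.0929 without Day6 replicate 1). Of 6 blood markers with a probe, Cd68, a lysosomal protein of macrophages, rose in EG (2.10 ± 0.40, limma adjusted p = 0.0196) and Tyrobp, an immune signalling adaptor, fell at Day3, Day6 and EG (changes of -1.71, -1.76 and -1.84).

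The summed intensity of 9 endothelial markers was 115 and 140 in EG, against 357 and 515 in E11.5 PGC. Pecam1 made up 44.1 and 60.7 of this sum in EG and 184 and 377 in E11.5 PGC. Cdh5, another marker of the list, had no value on E11.5 PGC replicate 1 and 2.61 on replicate 2. Cldn5, an endothelial tight junction protein, fell by 4.12 ± 0.36 on the log2 scale at Day6 (limma adjusted p = 0.00206). Tek, an angiopoietin receptor, was called higher at Day6 (limma adjusted p = 0.0315), with 7.02 and 21.5 there against 1.74 and 1.91 in E11.5 PGC, values near the dimmest probes. Of the 8 endothelial markers tested, 1 rose and 1 fell at Day6 and 0 rose and 2 fell in EG, and with the block 2 rose and 2 fell at Day6 and 2 rose and 3 fell in EG. These counts stand beside the shares of all probes called that are given above. Of 12 fibroblast and mesenchyme markers, Dcn, a matrix proteoglycan, was called higher at Day3 (4.22 ± 0.76, limma adjusted p = 0.0436), and none was called at Day6 or in EG without a block. With the block S100a4 and Thy1 were called higher at Day6 and S100a4 in EG (limma adjusted p = 0.0245, 0.0234 and 0.0322). Without Day6 replicate 1, and with no block, both were called higher in EG (limma adjusted p = 0.00621 and 0.00728).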
